A study of Mus musculus with 6 samples.

Results

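Insulin-like growth factor (IGF) signalling genes were followed in cultured mouse ovarian surface epithelial cells, the single cell layer that covers the ovary. The 10 genes described are the ligand Igf2, the receptors Igf1r and Igf2r, the binding protein genes Igfbp2, Igfbp3, Igfbp4, Igfbp5 and Igfbp6, and the pappalysin genes Pappa and Pappa2. They are 10 of 48440 genes in the count table and were found by symbol through their Ensembl gene IDs. The genes were selected on their counts in this same contrast, so the differences between the groups are given as a description and support nothing further.

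The Ad-Cre-GFP group held 3 libraries of cells labelled Lats1/2 knockout, taken 7 days after an adenovirus brought in Cre recombinase with GFP. The Ad-GFP group held 3 libraries of cells labelled WT that received a GFP adenovirus and were taken at the same 7 days. Both groups therefore carried an adenovirus and GFP, and only the Ad-Cre-GFP cells received Cre. No group received Cre without the knockout label, so the effect of the deletion and that of Cre itself cannot be told apart. The Lats1 and Lats2 alleles that Cre acts on, the mouse strain and the animals' age are not given in the labels. Nothing in the labels ties the replicates to separate cultures, and each p-value here therefore reflects the spread among these 6 libraries alone, which may be technical.

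IGF1 and IGF2 are secreted growth factors that act through the receptor tyrosine kinase IGF1R, which signals through insulin receptor substrates to the PI3K and AKT kinases. IGF2R, also the mannose 6-phosphate receptor, carries lysosomal enzymes and takes IGF2 to the lysosome for breakdown without kinase signalling of its own. The IGF binding proteins hold IGFs outside the cell, and the pappalysins PAPP-A and PAPP-A2 are secreted metalloproteases that cut some of them and so release IGF. In the ovary, PAPP-A is best known from granulosa cells of growing follicles.

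The libraries held 29642448, 30304033 and 27734527 counts for Ad-Cre-GFP and 21546287, 25363462 and 18690235 for Ad-GFP. Lats1 averaged 37.1 ± 1.36 CPM (counts after scaling each library to 1000000) in Ad-Cre-GFP and 159 ± 8.74 CPM in Ad-GFP cells (SD, n = 3 each). Lats2 averaged 98.7 ± 1.97 CPM in Ad-Cre-GFP and 130 ± 2.16 CPM in Ad-GFP cells. Each Ad-Cre-GFP library was below each Ad-GFP library for both targeted genes. Lats1 was at 23.2% of its Ad-GFP level, in the direction of the labels. Lats2 kept 76.2%, a log2 fold change of -0.39 beside a median absolute value of 0.345 over all genes tested, so its counts check the Lats2 label only weakly. The groups separated on the first principal component (89.5% of the variance), and Ad-GFP replicate 3 stood apart from the other Ad-GFP libraries on the second (3.15%). The epithelial markers Krt8, Krt18, Krt19, Wt1, Msln, Upk3b and Aldh1a1 were all detected. Lhx9 had few counts (8, 13 and 5 in Ad-Cre-GFP and 13, 15 and 13 in Ad-GFP libraries), and Lgr5 had at most 1 count per library. The 12 listed surface epithelial markers summed to 7878 to 7931 CPM in Ad-Cre-GFP and 6409 to 6539 CPM in Ad-GFP libraries, most of it Aldh1a1 (means of 5062 CPM in Ad-Cre-GFP and 3634 CPM in Ad-GFP cells). Of the 11 tested, 6 were called higher and 5 lower. The higher ones included Krt7, Msln and Upk3b, at 264%, 215% and 208% of their Ad-GFP levels. Krt7 was low in both groups, at means of 4.91 CPM in Ad-Cre-GFP and 1.86 CPM in Ad-GFP cells. The lower ones included Krt19, Gata4 and Wt1, at 33.1%, 38.7% and 45.2%, and Lhx9 with its few counts, at 47.7%.

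Of 14811 genes tested, 69.8% were called changed at a Benjamini-Hochberg adjusted p under 0.05 in edgeR's quasi-likelihood test, 34.0% higher and 35.8% lower in Ad-Cre-GFP cells. With so many genes called, a call by itself sets no gene apart. The low-count filter left 8 of the 10 genes for testing. Of these, 5 were called higher (Igf2, Igf1r, Igfbp2, Igfbp4 and Pappa2), 2 lower (Igf2r and Igfbp3) and 1 not called (Igfbp5), while Igfbp6 and Pappa had too few counts to be tested. The filter asked for 3 libraries over its cutoff. Igf2 had no Ad-GFP library over it, and Igfbp4, Igfbp5 and Pappa2 had 2 Ad-GFP libraries over it, so these 4 genes passed only because all Ad-Cre-GFP libraries did, and no count or median over the tested genes is read as a result. Their median log2 fold change was 0.85, against -0.007 over all genes tested. In CPM, 7 of the 8 had groups that did not overlap, against 73.0% of all genes tested, and 3 (Igf2, Igfbp2 and Pappa2) were called with a change of at least 2-fold, against 13.8%.

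**Figure D1:**
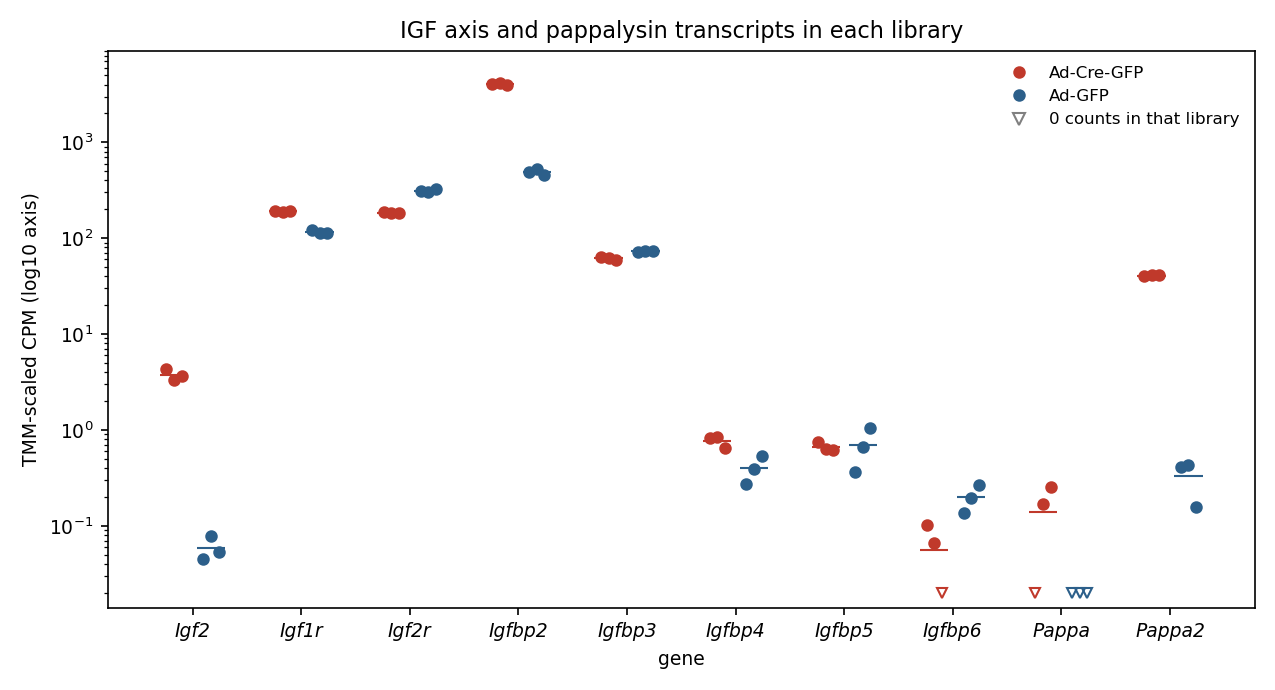
Level of each of the 10 genes in CPM on a log axis, with 1 point per library and a bar at the group mean, Ad-Cre-GFP to the left of Ad-GFP, and open triangles for libraries with 0 counts. Pappa2 was at 40.2 to 41.0 CPM in Ad-Cre-GFP and 0.159 to 0.430 CPM in Ad-GFP libraries, whereas the points of Igfbp5 overlap.

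The start regions of 4 of these genes are shown here because they hold, or lack, the motifs searched for and belong to the genes with the widest separation between the groups or, for Igfbp5, to the convergent neighbour of Igfbp2. RefSeq (GRCm38.p6) gave 13 windows for 9 of the 10 genes, each running from 250 bases before to 50 bases after an annotated start. Both strands were searched for GGAATG, the core of the motif bound by TEAD factors (the DNA-binding partners of YAP and TAZ), whose reverse complement is CATTCC, and for TGANTCA, the AP-1 motif, which reads the same on both strands. No window of these genes held both motifs. Capitals mark the matches, and every sequence is written 5′ to 3′ on the strand of its gene. Igf2 lies on the minus strand, and 3 of its 4 windows held the TEAD core: chr7:142657447-142657746 (window 1), chr7:142658755-142659054 (window 2) and chr7:142661222-142661521 (window 3).
Igf2 window 1: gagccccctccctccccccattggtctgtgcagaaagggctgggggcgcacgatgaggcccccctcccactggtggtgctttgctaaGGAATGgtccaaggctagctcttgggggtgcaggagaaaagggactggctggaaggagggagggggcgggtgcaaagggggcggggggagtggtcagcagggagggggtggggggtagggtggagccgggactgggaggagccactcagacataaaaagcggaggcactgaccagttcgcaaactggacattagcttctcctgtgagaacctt
Igf2 window 2: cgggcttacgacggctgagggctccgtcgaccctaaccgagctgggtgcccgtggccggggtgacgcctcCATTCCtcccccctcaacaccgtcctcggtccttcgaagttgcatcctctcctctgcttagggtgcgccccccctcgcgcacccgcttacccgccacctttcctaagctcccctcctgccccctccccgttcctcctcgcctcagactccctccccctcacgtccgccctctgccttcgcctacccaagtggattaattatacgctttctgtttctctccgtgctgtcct
Igf2 window 3: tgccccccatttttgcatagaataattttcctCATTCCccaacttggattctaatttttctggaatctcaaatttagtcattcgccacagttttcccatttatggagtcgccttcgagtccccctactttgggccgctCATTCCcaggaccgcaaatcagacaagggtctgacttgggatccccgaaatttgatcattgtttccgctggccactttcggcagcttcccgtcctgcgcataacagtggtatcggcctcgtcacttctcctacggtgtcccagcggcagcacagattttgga

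In Igf2 window 1 the core began 163 bases before the start, in window 2 it began 180 bases before on the opposite strand, and window 3 held it 218 and 112 bases before, both on the opposite strand. The counts are per gene and do not say which of these Igf2 starts was used. The windows of Igfbp2 are on the plus strand at chr1:72824230-72824529 (window 1, no match) and chr1:72825137-72825436 (window 2, an AP-1 match 39 bases before the start). Igfbp5, on the minus strand at chr1:72874816-72875115, held a TEAD core 233 bases before its start, and the window of Pappa2, on the minus strand at chr1:158958126-158958425, held neither motif.
Igfbp2 window 1: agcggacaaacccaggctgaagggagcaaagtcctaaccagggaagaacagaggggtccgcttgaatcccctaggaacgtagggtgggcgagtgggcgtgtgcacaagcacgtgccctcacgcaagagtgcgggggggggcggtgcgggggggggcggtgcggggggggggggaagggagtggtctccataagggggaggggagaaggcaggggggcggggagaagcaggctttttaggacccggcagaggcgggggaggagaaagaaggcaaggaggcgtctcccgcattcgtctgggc
Igfbp2 window 2: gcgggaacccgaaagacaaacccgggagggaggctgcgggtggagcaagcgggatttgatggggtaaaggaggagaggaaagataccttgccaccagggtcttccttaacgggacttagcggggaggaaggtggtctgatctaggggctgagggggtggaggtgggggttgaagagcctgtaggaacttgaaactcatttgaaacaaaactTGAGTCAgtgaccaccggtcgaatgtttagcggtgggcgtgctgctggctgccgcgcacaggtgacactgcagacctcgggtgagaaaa
Igfbp5: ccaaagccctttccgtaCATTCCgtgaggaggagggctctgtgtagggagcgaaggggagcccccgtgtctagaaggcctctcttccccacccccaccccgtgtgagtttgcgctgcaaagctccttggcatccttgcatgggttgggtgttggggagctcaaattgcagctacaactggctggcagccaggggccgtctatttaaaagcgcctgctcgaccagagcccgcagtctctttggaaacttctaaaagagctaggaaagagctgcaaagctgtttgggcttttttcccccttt
Pappa2: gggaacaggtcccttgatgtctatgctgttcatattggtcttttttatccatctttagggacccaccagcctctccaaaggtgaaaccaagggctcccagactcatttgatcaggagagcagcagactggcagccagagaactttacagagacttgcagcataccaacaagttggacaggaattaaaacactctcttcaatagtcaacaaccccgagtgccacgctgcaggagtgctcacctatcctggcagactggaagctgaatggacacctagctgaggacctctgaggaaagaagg

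The TEAD core was present in 4 of the 13 windows, and in 14.7% of 32851 windows of all genes. Those 4 belong to 2 of the 9 genes and are all Igf2 windows except that of Igfbp5. Several windows of 1 gene are not separate cases, and no share per gene was taken over all genes. No excess is therefore read from these counts. The AP-1 motif was present in 1 of the 13 windows and in 7.81% of all windows. The Pappa2 window lies 22315 bases inside the 5′ end that the GENCODE annotation gives the gene. Igf2 windows 1, 2 and 3 lie 9320, 8012 and 5545 bases inside that of Igf2, whereas window 4, at that end, held no match. Igfbp2 window 2, with the AP-1 match, lies 884 bases inside that of Igfbp2. A match describes letters in a window and not a bound site.

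Igf2, the ligand that is imprinted and abundant in fetal tissues, was close to undetected in Ad-GFP cells. It is at chr7:142650766-142666816 on the minus strand (GRCm38), with 5723 bases of annotated exon. The Ad-Cre-GFP libraries held 127, 99 and 100 Igf2 counts, and the Ad-GFP libraries held 1, 2 and 1. These counts equal 4.34, 3.31 and 3.65 CPM in Ad-Cre-GFP, against 0.0456, 0.0783 and 0.0530 CPM in Ad-GFP cells.

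Every Ad-Cre-GFP library was thus far above every Ad-GFP library for Igf2, but the level stayed low. Each Ad-GFP value was under the limit of 3 counts, which is 0.117 to 0.159 CPM in those libraries. Over the summed counts of 326 and 4, the ratio of Igf2 to the library totals was 61.0 times higher in Ad-Cre-GFP, with a 95% exact binomial interval of 23.6 to 225 that covers counting error only. The fitted log2 fold change was 5.86 ± 0.33 (SE), a value that depends on the prior count because the Ad-GFP libraries are so near 0. By size of log2 fold change Igf2 ranked 29 of 14811.

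Reads from the Igf2 locus have 2 limits. Gm49394, an annotated protein-coding model on the same strand, shares 3596 of the 5723 exon bases with Igf2 and has no row in the count table, so reads from it and from Igf2 cannot be told apart here. The antisense gene Igf2os shares 98 exon bases on the opposite strand and had 10 counts in the Ad-Cre-GFP libraries and 0 in the Ad-GFP libraries. H19, the imprinted RNA gene 72.6 kb from Igf2, had 2 counts in the Ad-Cre-GFP libraries and 0 in the Ad-GFP libraries, and Ins2, 11.8 kb from Igf2, had 0 in all 6.

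Igf1r, which encodes the signalling receptor for IGF1 and IGF2, was higher in Ad-Cre-GFP cells. The gene is at chr7:67952827-68233668 on the plus strand. Its level was 191, 188 and 192 CPM in the Ad-Cre-GFP libraries, against 122, 112 and 113 CPM in the Ad-GFP libraries. The groups did not overlap, and the Ad-Cre-GFP libraries were closely spaced. The log2 fold change was 0.72 ± 0.03 (SE).

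Igf2r, which encodes the clearance receptor, moved the other way. The gene is at chr17:12682406-12769664 on the minus strand. Its level was 188, 181 and 184 CPM in Ad-Cre-GFP, against 308, 304 and 326 CPM in Ad-GFP libraries. The Ad-Cre-GFP mean was 58.9% of the Ad-GFP mean, the log2 fold change was -0.76 ± 0.03 (SE), and no library of one group reached the other. Airn, the noncoding RNA that in the mouse silences Igf2r on the paternal chromosome, averaged 2.30 ± 0.127 CPM in Ad-Cre-GFP and 4.24 ± 0.576 CPM in Ad-GFP cells (SD, n = 3 each; log2 fold change -0.89 ± 0.14, edgeR quasi-likelihood adjusted p = 9.52e-06). Igf2r and Airn thus were both lower. Their gene bodies overlap on opposite strands without sharing exon bases. Airn had 199 counts in the Ad-Cre-GFP and 285 in the Ad-GFP libraries. As the strand setting of the counts is not known, reads from Igf2r introns may be included in these, which was not tested.

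As both receptor genes changed, their ratio per kilobase of exon was also taken, a measure chosen after seeing the data. Igf1r over Igf2r was 0.563, 0.577 and 0.579 in Ad-Cre-GFP libraries, against 0.219, 0.205 and 0.191 in Ad-GFP libraries. Igf1r over Insr, the insulin receptor gene, averaged 3.31 ± 0.0383 in Ad-Cre-GFP and 1.50 ± 0.102 in Ad-GFP cells (SD, n = 3 each). Insr itself was lower, at 47.2 ± 0.0823 CPM in Ad-Cre-GFP and 63.0 ± 2.94 CPM in Ad-GFP cells (log2 fold change -0.42 ± 0.04, edgeR quasi-likelihood adjusted p = 9.98e-09). The size of the first ratio depends on the exon length used, being 0.805 in Ad-Cre-GFP and 0.288 in Ad-GFP cells with the longest transcript.

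**Figure D2:**
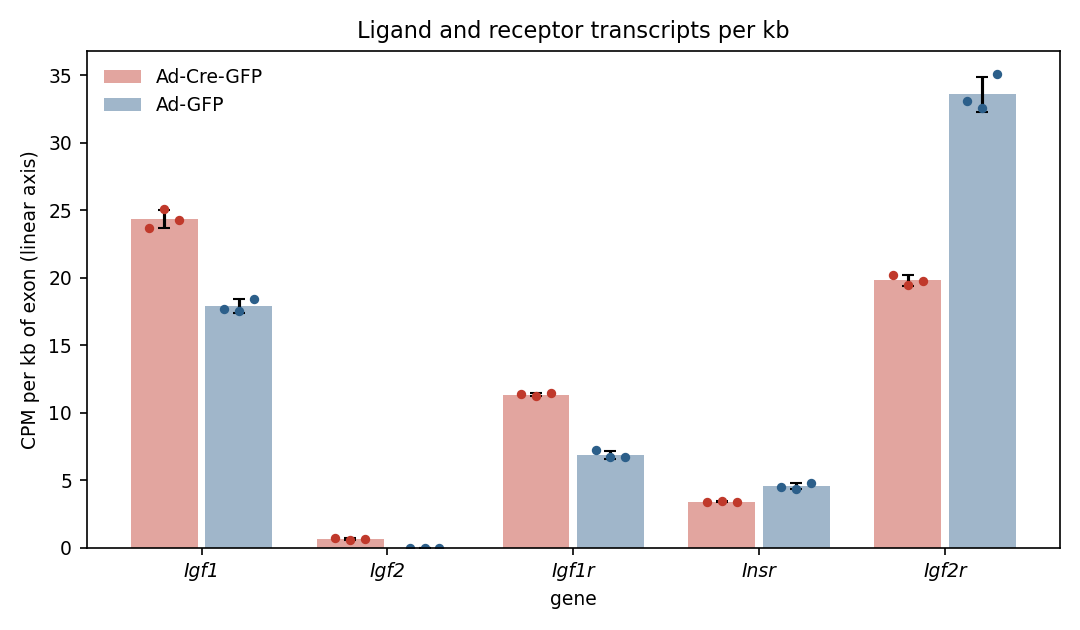
Igf1, Igf2, Igf1r, Insr and Igf2r levels in CPM per kilobase of exon on a linear axis, Ad-Cre-GFP left of Ad-GFP. Bars give the group mean with its SD, with 1 point per library. Igf1, at 24.4 ± 0.672 in Ad-Cre-GFP and 17.9 ± 0.496 CPM per kilobase in Ad-GFP cells (SD, n = 3 each), stood far above Igf2 in both groups.

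Igfbp2 was by far the most abundant of the binding protein transcripts, and it was higher in Ad-Cre-GFP cells. Its protein binds both IGFs and carries an integrin-binding motif. The gene is at chr1:72824503-72852474 on the plus strand. Its counts were 119806, 125146 and 109433 in Ad-Cre-GFP, against 10877, 13616 and 8650 in Ad-GFP libraries. On the CPM scale these were 4098, 4187 and 3994 in Ad-Cre-GFP, against 496, 533 and 459 in Ad-GFP libraries.

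The Igfbp2 groups were separated by several times the spread within either. The mean was 8.26 times higher in Ad-Cre-GFP cells, with a log2 fold change of 3.04 ± 0.05 (SE), rank 286 of 14811 by size. In mean level per kilobase over all 6 libraries, Igfbp2 ranked 26 among the tested genes, so its change is measured with ample depth.

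Igfbp3, whose product is the main IGF carrier in serum, changed far less and in the other direction. The gene is at chr11:7206086-7213923 on the minus strand. Its level was 63.3, 62.3 and 59.7 CPM in Ad-Cre-GFP, against 71.2, 72.7 and 74.3 CPM in Ad-GFP libraries. The groups did not overlap, and the log2 fold change was -0.23 ± 0.04 (SE), a small shift beside the median absolute log2 fold change of 0.345 over all genes tested.

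Igfbp4, Igfbp5 and Igfbp6 were at the edge of detection. Igfbp4, the best known substrate gene of PAPP-A, at chr11:99041244-99054392 on the plus strand, had 24, 25 and 18 counts in Ad-Cre-GFP and 6, 10 and 10 counts in Ad-GFP libraries. Those values equal 0.821, 0.836 and 0.657 CPM in Ad-Cre-GFP, against 0.273, 0.391 and 0.530 CPM in Ad-GFP libraries. The Igfbp4 groups did not overlap, but the call was not stable. The log2 fold change was 0.97 ± 0.32 (SE), with an adjusted p of 0.0102 in edgeR's quasi-likelihood test, 0.0625 in DESeq2 and 0.0661 in edgeR without Ad-GFP replicate 1.

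Igfbp5, whose product both pappalysins are known to cut, gave no call. The gene is at chr1:72857932-72874884 on the minus strand. It had 0.752, 0.636 and 0.620 CPM in Ad-Cre-GFP, against 0.365, 0.665 and 1.06 CPM in Ad-GFP libraries. The Ad-GFP libraries enclosed all of the Ad-Cre-GFP values, with replicate 3 highest. The log2 fold change of Igfbp5 was -0.02 ± 0.32 (SE) with all libraries and 0.35 without Ad-GFP replicate 3, so its direction is not determined.

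Igfbp6, a binding protein that prefers IGF2, is at chr15:102144362-102149511 on the plus strand. It had 3, 2 and 0 counts in Ad-Cre-GFP, against 3, 5 and 5 counts in Ad-GFP libraries. At these counts most values were at or near the limit of 3 counts, and the gene was not tested. The ratio to the library totals was 0.288 (95% exact binomial interval 0.0803 to 0.860, counting error only).

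Set side by side per kilobase of exon, the binding protein transcripts were nearly all Igfbp2. Of the summed level of Igfbp1 to Igfbp6, Igfbp2 made up 99.1% ± 0.0198 in Ad-Cre-GFP and 91.9% ± 0.698 in Ad-GFP cells (SD, n = 3 each). Igfbp3 made up 0.882% ± 0.0179 in Ad-Cre-GFP and 7.99% ± 0.651 in Ad-GFP cells. The level of Igfbp3 itself averaged 61.8 ± 1.86 CPM in Ad-Cre-GFP and 72.7 ± 1.53 CPM in Ad-GFP cells. The sum was 2236 ± 52.8 CPM per kilobase in Ad-Cre-GFP and 292 ± 19.8 CPM per kilobase in Ad-GFP cells. The other 4 together were 0.0157% ± 0.00358 in Ad-Cre-GFP and 0.134% ± 0.0572 in Ad-GFP cells.

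Pappa2 showed the widest separation of the 10 genes. It encodes PAPP-A2, which in humans and mice releases IGF1 by cutting IGFBP3 and IGFBP5. The gene is at chr1:158711727-158980490 on the minus strand. Its counts were 1174, 1224 and 1124 in Ad-Cre-GFP, against 9, 11 and 3 in Ad-GFP libraries.

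The same Pappa2 values were 40.2, 41.0 and 41.0 CPM in Ad-Cre-GFP, against 0.410, 0.430 and 0.159 CPM in Ad-GFP libraries. The Ad-Cre-GFP libraries were almost equal to each other, and 1 Ad-GFP library was at the limit of 3 counts with the other two not far above it. Over the summed counts of 3522 and 23, the ratio to the library totals was 115 times higher in Ad-Cre-GFP (95% exact binomial interval 76.2 to 181, counting error only). The fitted log2 fold change was 6.86 ± 0.12 (SE), rank 17 of 14811 by size. A long noncoding gene, 1600012P17Rik, shares 310 exon bases with Pappa2 on the same strand and had 5 counts in the Ad-Cre-GFP libraries and 0 in the Ad-GFP libraries.

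Pappa, which encodes PAPP-A, the protease of IGFBP4, is at chr4:65124174-65357509 on the plus strand. It had 0, 5 and 7 counts in Ad-Cre-GFP, against 0 in each of the 3 Ad-GFP libraries. One Ad-Cre-GFP library was as empty as the controls, and a count of 0 in an Ad-GFP library allows up to 0.117 to 0.159 CPM. Pappa was not tested. Its paralogue Pappa2 was thus the only pappalysin gene with more than a few counts in any library.

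**Figure D3:**
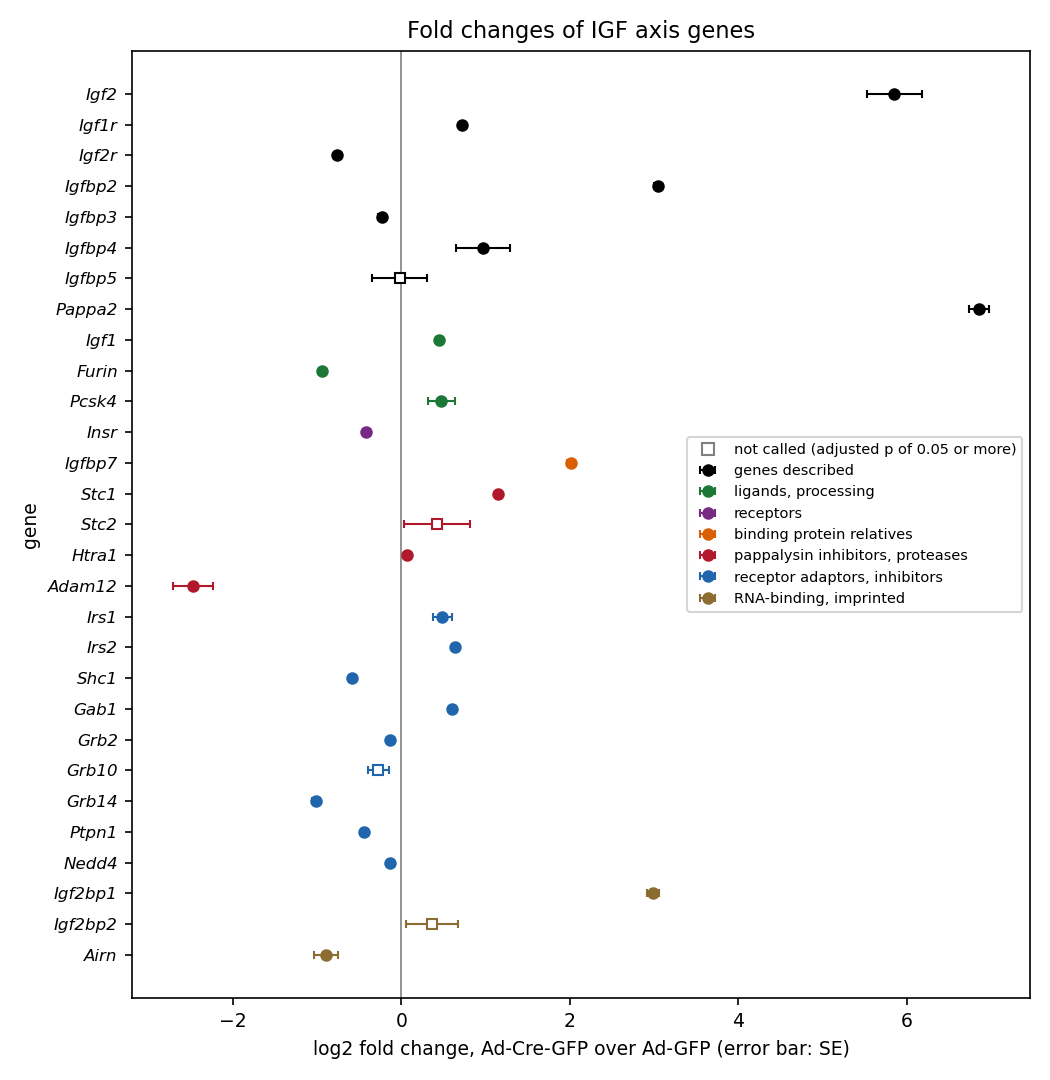
Log2 fold change of Ad-Cre-GFP over Ad-GFP with its SE for the 8 tested genes and the 21 tested other IGF axis genes, filled circles where called at an adjusted p under 0.05 and open squares where not. Pappa2 at 6.86 and Igf2 at 5.86 lie far to the right, Igfbp5 at -0.02 sits on 0, and Igf2r at -0.76 is the lowest of the 8.

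The order of levels also differed between the groups, taken as mean CPM per kilobase of exon. In Ad-Cre-GFP cells it was Igfbp2 at 2216, Igf2r at 19.8, Igfbp3 at 19.7, Igf1r at 11.3, Pappa2 at 3.95, Igf2 at 0.659, Igfbp4 at 0.175, Igfbp5 at 0.111, Igfbp6 at 0.0508 and Pappa at 0.0128. Igf2r and Igfbp3 did not differ there beyond their spread and change places when the longest transcript is used as length, with Igf2r at 20.8 and Igfbp3 at 25.5. In Ad-GFP cells the order was Igfbp2 at 268, Igf2r at 33.6, Igfbp3 at 23.2, Igf1r at 6.88, Igfbp6 at 0.179, Igfbp5 at 0.116, Igfbp4 at 0.0902, Pappa2 at 0.0324 and Igf2 at 0.0103, with Pappa at 0. Pappa2 thus stood in the fifth place in Ad-Cre-GFP and in the eighth place in Ad-GFP cells. The places below Igf1r in Ad-GFP cells rest on few counts, and the libraries of Igfbp5 overlap there with those of both neighbours, Igfbp6 and Igfbp4.

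**Figure D4:**
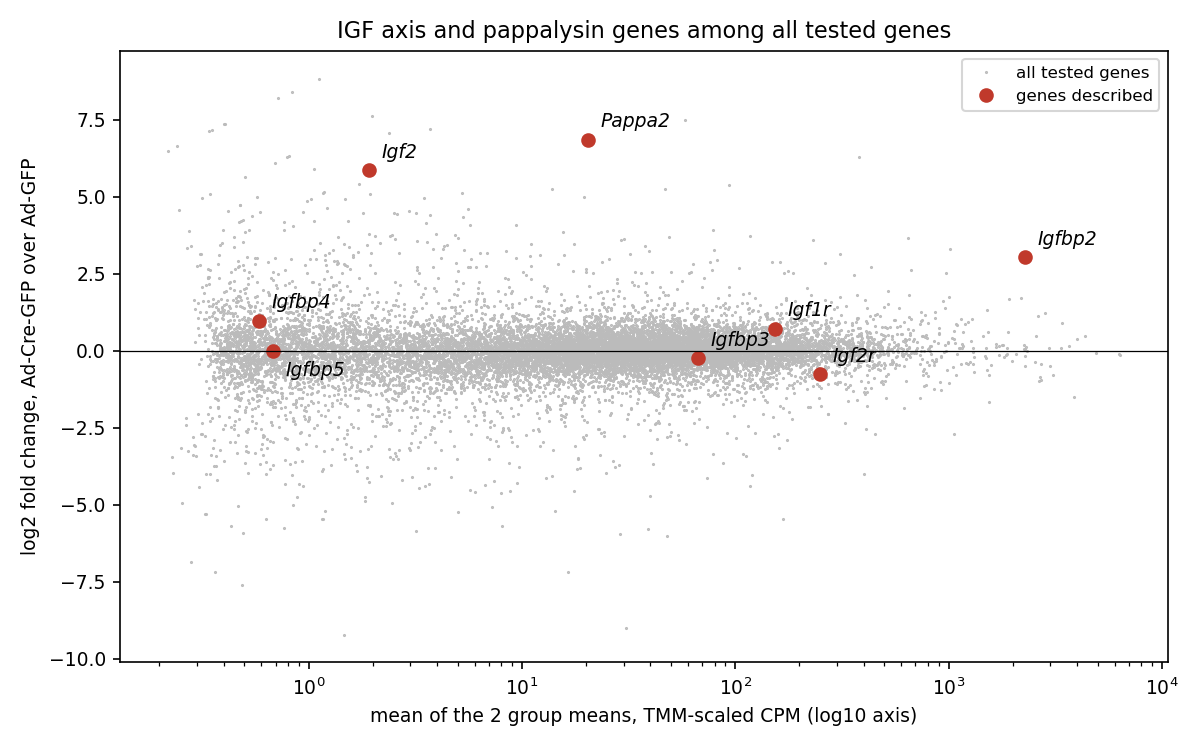
Log2 fold change of Ad-Cre-GFP over Ad-GFP against the mean of the group means in CPM (log axis) for the 14811 tested genes (grey), with the 8 tested IGF axis and pappalysin genes in red with their names. Igfbp2 combines a high level with a log2 fold change of 3.04, whereas Igf2, Igfbp4 and Igfbp5 lie at the low end of the level axis.

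Another 33 genes of the IGF axis were listed, also with earlier results of these data known, and 21 of them could be tested. Of these, 9 were higher, 9 lower and 3 not called, with a median log2 fold change of 0.07 against -0.007 over all genes tested. The shares over all genes tested were 34.0% higher and 35.8% lower, and the list was also chosen with this contrast known, so nothing is read from its count. Among ligands and their processing, Igf1 averaged 241 ± 6.66 CPM in Ad-Cre-GFP and 177 ± 4.91 CPM in Ad-GFP cells (SD, n = 3 each; log2 fold change 0.45 ± 0.03, edgeR quasi-likelihood adjusted p = 4.73e-11). Igf1 was thus the main IGF ligand transcript in both groups, well above Igf2 per kilobase. Furin, the convertase that processes the IGF1R and insulin receptor precursors, was lower (-0.94 ± 0.03, adjusted p = 2.22e-16). Pcsk4, a related convertase, was higher (0.47 ± 0.16, adjusted p = 0.0132), a call lost without Ad-GFP replicate 1 (adjusted p = 0.110).

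Among the genes that act beside the binding proteins and pappalysins, Stc1 and Igfbp7 rose. Stc1 encodes stanniocalcin 1, an inhibitor of the pappalysins, and averaged 622 ± 9.30 CPM in Ad-Cre-GFP and 280 ± 5.19 CPM in Ad-GFP cells (SD, n = 3 each; log2 fold change 1.15 ± 0.03, edgeR quasi-likelihood adjusted p = 9.1e-19). Stc1 and Pappa2, inhibitor and protease, were therefore both higher. Its paralogue Stc2 was at 0.514 ± 0.190 CPM in Ad-Cre-GFP and 0.388 ± 0.180 CPM in Ad-GFP cells and was not called. Igfbp7, a relative with low affinity for IGFs, averaged 85.5 ± 3.88 CPM in Ad-Cre-GFP and 21.2 ± 0.698 CPM in Ad-GFP cells (2.01 ± 0.05, adjusted p = 2.2e-19), and it shares 85 exon bases with Polr2b on the opposite strand. Adam12, a metalloprotease that can cut IGFBP3 and IGFBP5, was at 0.484 ± 0.104 CPM in Ad-Cre-GFP and 2.75 ± 0.528 CPM in Ad-GFP cells (-2.47 ± 0.24, adjusted p = 5.17e-09). Htra1 was nearly level (0.07 ± 0.03, adjusted p = 0.0460), and its call was lost with upper-quartile scaling (0.105) and without Ad-GFP replicate 1 (0.196), Ad-Cre-GFP replicate 1 (0.0993) or Ad-Cre-GFP replicate 2 (0.124).

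Of the 11 genes for receptor adaptors and inhibitors, 9 were tested, with 3 higher, 5 lower and 1 not called, against 69.8% called over all genes tested. Irs2 (0.64 ± 0.03), Gab1 (0.60 ± 0.04) and Irs1 (0.49 ± 0.11), docking proteins downstream of IGF1R, were higher in log2 fold change beside the higher Igf1r, with edgeR quasi-likelihood adjusted p-values of 1.79e-13, 2.59e-12 and 0.000491. The adaptor Grb14, an inhibitor of the insulin receptor (-1.02 ± 0.04, adjusted p = 8.85e-16), the adaptor Shc1 (-0.59 ± 0.03, 9.63e-13) and the phosphatase Ptpn1 (-0.44 ± 0.03, 2.52e-10) were lower. Grb2 (-0.14 ± 0.04, 0.00177) and the ubiquitin ligase Nedd4 (-0.14 ± 0.03, 0.000419) were lower by little. Grb10 was not called (-0.27 ± 0.13, 0.0640), but was called without Ad-GFP replicate 3 (-0.38, 0.0105).

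Igf2bp1, an RNA-binding protein of fetal tissues that binds Igf2 mRNA, averaged 45.5 ± 1.28 CPM in Ad-Cre-GFP and 5.68 ± 0.975 CPM in Ad-GFP cells (SD, n = 3 each; log2 fold change 2.99 ± 0.08, edgeR quasi-likelihood adjusted p = 1.04e-18). It was thus higher together with Igf2. Igf2bp2 was at 0.849 ± 0.308 CPM in Ad-Cre-GFP and 0.650 ± 0.150 CPM in Ad-GFP cells and was not called.

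Markers of other cell types moved in part with these genes. In bulk RNA, fewer cells of a type and less RNA per cell cannot be told apart. The 7 listed smooth muscle and pericyte markers summed to 1432 to 1475 CPM in Ad-Cre-GFP and 410 to 512 CPM in Ad-GFP libraries, nearly all of it Acta2. The 3 tested, Acta2, Mcam and Notch3, were all higher. Too low to test were Myh11 (14 counts in Ad-Cre-GFP and 7 in Ad-GFP libraries), Des (17 and 8), Rgs5 (15 and 5) and Cspg4 (5 and 3). The 6 stromal fibroblast markers summed to 275 to 296 CPM in Ad-Cre-GFP and 397 to 413 CPM in Ad-GFP libraries. Most of it was Col1a1, which was lower by little (log2 fold change -0.157 ± 0.034). The 5 tested were all lower, Dcn (-1.909) and Col15a1 (-4.298) by more. Dpt (2 counts in Ad-Cre-GFP and 29 in Ad-GFP libraries) and Pdgfra (17 and 52) rest on few counts. Lum was at 0 in every library. The 5 endothelial markers summed to 10.02 to 11.4 CPM in Ad-Cre-GFP and 3.01 to 3.05 CPM in Ad-GFP libraries. Both tested, Kdr and Flt1, were higher, with 173 Kdr counts in Ad-Cre-GFP and 4 in Ad-GFP libraries. The others did not follow as a set: Pecam1 had 10 counts in Ad-Cre-GFP and 14 in Ad-GFP libraries, and Cdh5 had 3 and 0. Tie1 was at 0 in every library. The 5 immune markers summed to 6.62 to 7.23 CPM in Ad-Cre-GFP and 10.9 to 13.1 CPM in Ad-GFP libraries, of 2 tested Cd14 was lower and Cd68 not called, and Adgre1 was at 0. The 5 theca markers summed to 5.03 to 6.57 CPM in Ad-Cre-GFP and 23.1 to 28.2 CPM in Ad-GFP libraries, nearly all of it Star, the 1 gene tested and lower, with Hsd3b1 and Lhcgr at 0. The 4 oviduct markers summed to 2.68 to 2.98 CPM in Ad-Cre-GFP and 3.40 to 4.51 CPM in Ad-GFP libraries, with Epcam lower and Ovgp1 not called. The 4 oocyte markers summed to 0.292 to 0.581 CPM in Ad-Cre-GFP and 0.318 to 0.430 CPM in Ad-GFP libraries, none was tested, and Zp3 and Dazl were at 0. Markers of granulosa cells, the ovarian cells best known for PAPP-A, summed to 3.03 to 4.14 CPM in Ad-Cre-GFP and 3.23 to 3.78 CPM in Ad-GFP libraries, and Fshr and Cyp19a1 were at 0 in every library. Within that sum, the 3 tested granulosa markers were all called, Foxl2 (63 counts in Ad-Cre-GFP and 10 in Ad-GFP libraries) and Amh higher and Inha lower. The part of these marker shifts in the higher Igfbp2, Igf2 and Pappa2, and in the lower Igf2r, was not tested.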

How the data were processed

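Poly(A)-selected RNA of 6 libraries was sequenced, after column purification and bead enrichment per the labels' protocols. Read counts per gene, whole numbers in 1 column per library, were deposited, made from aligned reads per the file headers. Kallisto 0.46.2, sleuth 0.30.1 and GRCm38 appear in the submitters' processing notes. For the aligner, counting tool, strand setting, multi-mapping reads and annotation, the sources used here give no detail, so counts of overlapping genes are uncertain.

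Symbols, exon lengths and coordinates came from GENCODE mouse release M21 (GRCm38), with 48058 of 48440 gene IDs matched. Of all genes, 21434 had 0 counts in all libraries. Counts were filtered with filterByExpr, scaled by TMM and fitted in edgeR 4.0.16 (robust quasi-likelihood test, no replicate block, R 4.3.3). Calls needed a Benjamini-Hochberg adjusted p under 0.05 over 14811 genes. The SE is the absolute log2 fold change over the square root of F. CPM values are TMM-scaled, given as mean ± SD, and levels per kilobase divide by the union of annotated exons. A positive fold change means higher in Ad-Cre-GFP. Intervals, and limits for 0 counts (3 counts), cover counting error only. Replicate pairs had a chi-square per gene of 2.04 to 4.27, so none agreed within sampling noise.

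The 10 genes, the 33 other IGF genes and the marker lists were chosen with earlier results of these data known. All 10 genes, and every called gene of the list of 33, are named, and 3 nearest genes are named for the largest rise and fall. Alternatives were DESeq2 1.42.0, its size factors in edgeR, upper-quartile scaling, limma-voom (3.58.1), other low-count filters, no robust dispersion, a replicate block and each library left out. The receptor ratios and their length alternative were added after seeing the data. The test was checked on simulated data, where false calls averaged slightly above the nominal share. Far fewer genes were changed there, equally in both directions, so the check does not cover data with as many calls as here. Shared transcript stretches were searched with minimap2 2.31 (at least 200 bases at 90% identity).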

Additional observations from a re-analysis of the deposited data

How the results depend on the processing

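Over 14 alternatives, the genes called higher numbered 4676 to 5593 and those called lower 4675 to 5437, against 5040 and 5304. Of the 10 genes described, 4 to 6 were called higher and 2 lower, and of the other listed IGF genes 7 to 10 were called higher and 9 to 10 lower. The sixth gene called higher was Pappa, which entered only with no low-count filter (edgeR quasi-likelihood adjusted p = 0.00484). Log2 fold changes ranged from 5.54 to 6.13 for Igf2, 0.70 to 0.76 for Igf1r, -0.78 to -0.73 for Igf2r, 2.99 to 3.10 for Igfbp2, -0.25 to -0.20 for Igfbp3, 0.77 to 1.19 for Igfbp4 and 6.58 to 7.09 for Pappa2. Igfbp5 changed sign with limma-voom (0.0757) and ran from -0.32 to 0.35 when single libraries were left out. The cause of these differences was not tested.

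Shares of the binding protein sum depend on length. With the longest transcript, Ad-Cre-GFP cells had 99.2% Igfbp2, 0.808% Igfbp3 and 0.0119% for the other 4. Without division by length, these were 98.5%, 1.49% and 0.0365% in Ad-Cre-GFP, and 87.0%, 12.8% and 0.230% in Ad-GFP cells. By construction, a longer assumed length lowers a gene's level. Igf1r over Igf2r with the longest transcript was 0.805 in Ad-Cre-GFP and 0.288 in Ad-GFP cells.

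The labels share replicate numbers but do not say that a number marks a shared culture or day, so the numbers were not taken to pair the samples. Deviations of same-numbered libraries correlated at 0.0488, 0.0510 and 0.00502, and those of differently numbered libraries at -0.0704 to 0.0227. These values do not settle whether the samples were paired. With a replicate block 5130 genes were called higher and 5348 lower, and 5 and 2 of the 10 genes. Depth limits Igf2 and Pappa2 in Ad-GFP cells and Igfbp4, Igfbp5, Igfbp6 and Pappa in both groups.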

Other observations

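Nearest patterns over the 6 libraries were taken by Euclidean distance of centred log2 CPM. The search covered 9784 genes with a mean of at least 5 CPM, without unnamed gene models and the genes described here. The genes nearest to Pappa2 were Cyp26b1 (distance 0.422, log2 fold change 6.28), Rasgrp3 (1.43, 7.50) and Npr3 (1.74, 5.37). Those nearest to Igf2r were Vamp2 (0.0376, -0.76), Cyp39a1 (0.0435, -0.75) and Inpp4a (0.0499, -0.75).

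Igfbp2 and Igfbp5 lie 5.46 kb apart on opposite strands of chromosome 1, and Igfbp2 was higher by 3.04 on the log2 scale while Igfbp5, at -0.02, was not called. Within 250 kb of Igfbp3, the tested neighbour was Adcy1, at 90.7 ± 1.79 CPM in Ad-Cre-GFP and 6.96 ± 1.17 CPM in Ad-GFP cells (SD, n = 3 each), beside the small fall of Igfbp3. Igfbp1, 3.54 kb from Igfbp3, had 2 counts in Ad-Cre-GFP libraries and 0 in Ad-GFP libraries. Within the same distance of Igf2 the tested gene was Mrpl23, which was not called (-0.13 ± 0.16), and no tested gene lay that close to Pappa2.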
